A study of Homo sapiens with 12 samples.

Results

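Interferon-stimulated genes were examined as a set of 38 named genes, which comprise factors of interferon signalling and the effector genes they switch on. The members were chosen by name, with earlier results of these data known. Every probe set whose only gene symbol in the platform annotation is a member was read. This gave 61 probe sets of 54613 (control probe sets aside) and 37 genes of 19775 tested. STAT2 was not analysed here. The RNA came from MDA-MB-231, a human breast cancer cell line, and each of the 3 groups held 4 arrays with replicates lettered A to D. The Sharp1 group overexpressed Sharp1, a helix-loop-helix repressor encoded by BHLHE41. In the shHIF group a retroviral small hairpin RNA construct targeted both HIF1a and HIF2a. The control group carried a retroviral hairpin against GFP, so control and shHIF cells both express a hairpin, while the labels do not name the construct that carried Sharp1. All cells grew in a DMEM and F12 mixture with serum, and the labels mention no added interferon. The replicates are called biological without mention of separate cultures, so the p-values reflect array-to-array spread, which may be technical.

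Interferons are secreted cytokines made when cells sense viral or misplaced nucleic acid. Type I interferons bind the receptor IFNAR, whose kinases JAK1 and TYK2 lead to a complex containing STAT2 and IRF9 that binds interferon-stimulated response elements (ISRE) in promoters. Interferon gamma acts at gamma-activated sites (GAS). Many tumour cells keep a low expression of these genes without added interferon.

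Values are log2 expression on the scale of RMA, a method that gives 1 normalized value per probe set, and a difference of 1 is a 2-fold change. Each gene was read on its brightest probe set, and a gene was called when limma's Benjamini-Hochberg adjusted p over all 19775 genes was below 0.05. Array medians lay between 5.38 and 5.44, and the lowest correlation within a group was 0.996. In Sharp1 cells BHLHE41 rose by 5.35 and 1.59 on 2 of its probe sets and read -2.06 on another, and EPAS1 and HIF1A were lower by 2.85 and 0.73 in shHIF cells on their brightest probe sets. EPAS1, which encodes HIF2a, was also lower in Sharp1 cells, by 0.71 on the same probe set. Markers of the line were bright, with group means of at least 11.9 for VIM, CD44, AXL, MSN and CAV1. Of 4 markers listed as absent, CDH1 and PGR read at most 4.06. The others read above the median probe set, ESR1 at 6.29 in Sharp1, 6.46 in shHIF and 6.28 in control cells, and EPCAM at 8.92 in Sharp1, 9.20 in shHIF and 9.54 in control cells. Of 6 leukocyte markers measured, 4 stayed below the median probe set (5.41) in every group, and the other two, LYZ and LAPTM5, differed by -1.26 and -2.18 in Sharp1 cells and by -0.72 and -0.17 in shHIF cells. PTPRC, the general leukocyte marker and one of the dim ones, went the other way, higher by 0.44 in Sharp1 and by 0.37 in shHIF cells, with a control mean of 4.01. Averaged over the 6, the arrays read 4.74 to 4.86 in Sharp1, 5.18 to 5.27 in shHIF and 5.27 to 5.398 in control cells, and the part of other cells in the results was not tested. Signal of the hybridisation spike-ins (18 probe sets) was 10.39 on shHIF A and 10.45 on shHIF D, against 10.63 to 10.81 on the other 10 arrays. Actin 3′ minus 5′ signal ran from 0.56 to 0.85 on the Sharp1, 0.62 to 0.94 on the shHIF and 0.59 to 0.74 on the control arrays.

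The promoters of the members were read for the strings that these factors are known to bind. RefSeq windows of 300 bases, 250 before to 50 after the gene start (GRCh38.p14), were matched for 29 of the 37 genes. The ISRE core, GAAA followed by any 2 bases and GAAA, searched like all strings here on both strands, was present in 20 of the 29 windows (69.0%), against 3.65% of 27305 windows of all genes, and 14 windows held more than 1. The GAS string TTCNNNGAA occurred in 9 windows (31.0%, against 7.88% of all), and in 3 of these it overlapped an ISRE string. The E-box CACGTG, a site type known for Sharp1 and related repressors, occurred in 2 windows (6.9%, against 7.43% of all), those of IRF9 and HERC5. ISRE strings stood in 9 of 13 windows of members called lower in Sharp1 cells, in 3 of 5 called higher and in 8 of 11 not called. In shHIF cells they stood in 7 of 7 windows of members called higher, 5 of 6 called lower and 8 of 16 not called. The windows below belong to IFIT3, lower in both groups, IFI27, higher in both, ISG15, higher in shHIF cells, and OAS3 and IRF9, whose calls had opposite signs in the 2 groups. Sequences run 5′ to 3′ along the gene, and capitals mark ISRE strings on either strand, or the E-box in IRF9, whose window holds no ISRE string.
IFIT3 promoter, chr10:89327747-89328046, plus strand: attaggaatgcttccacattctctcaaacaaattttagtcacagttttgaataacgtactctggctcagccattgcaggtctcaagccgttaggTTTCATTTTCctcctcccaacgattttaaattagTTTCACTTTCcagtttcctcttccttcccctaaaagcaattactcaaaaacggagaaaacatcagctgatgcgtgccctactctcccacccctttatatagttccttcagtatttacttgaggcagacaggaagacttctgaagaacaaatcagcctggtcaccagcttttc
OAS3 promoter, chr12:112938224-112938523, plus strand: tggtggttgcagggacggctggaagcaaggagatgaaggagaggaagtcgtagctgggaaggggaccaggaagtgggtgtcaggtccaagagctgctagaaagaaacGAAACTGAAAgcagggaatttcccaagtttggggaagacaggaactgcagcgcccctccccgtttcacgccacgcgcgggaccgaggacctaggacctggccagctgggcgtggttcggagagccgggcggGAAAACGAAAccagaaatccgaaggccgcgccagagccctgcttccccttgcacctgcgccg
IFI27 promoter, chr14:94110486-94110785, plus strand: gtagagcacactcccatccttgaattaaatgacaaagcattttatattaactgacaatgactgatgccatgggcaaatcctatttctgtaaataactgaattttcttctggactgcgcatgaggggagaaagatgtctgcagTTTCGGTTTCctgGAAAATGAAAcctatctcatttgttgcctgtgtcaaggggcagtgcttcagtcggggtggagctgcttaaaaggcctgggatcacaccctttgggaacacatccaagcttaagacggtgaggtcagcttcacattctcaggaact
ISG15 promoter, chr1:1013247-1013546, plus strand: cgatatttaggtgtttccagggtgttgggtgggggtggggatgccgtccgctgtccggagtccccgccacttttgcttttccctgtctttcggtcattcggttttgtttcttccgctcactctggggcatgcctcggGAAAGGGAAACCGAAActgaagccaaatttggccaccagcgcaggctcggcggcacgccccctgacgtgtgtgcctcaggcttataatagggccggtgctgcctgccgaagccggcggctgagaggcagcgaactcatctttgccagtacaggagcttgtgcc
IRF9 promoter, chr14:24161015-24161314, plus strand: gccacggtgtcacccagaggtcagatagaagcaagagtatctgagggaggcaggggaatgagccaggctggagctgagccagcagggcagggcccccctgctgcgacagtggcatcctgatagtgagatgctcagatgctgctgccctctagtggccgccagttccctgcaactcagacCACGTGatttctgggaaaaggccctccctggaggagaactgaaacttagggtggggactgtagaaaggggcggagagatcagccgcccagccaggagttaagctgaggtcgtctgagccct

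In Sharp1 cells, 17 of the 37 genes were lower than in control and 7 were higher, where 27.2% of all genes were called in either direction. As shares the members' counts are 45.9% and 18.9%, beside 11.8% and 15.3% of all genes tested. The list was chosen with earlier results of these data known, so its shares, here and below, are a description. The members' differences had a median of -0.12 (range -0.93 to 0.58), against a median of -0.0018 over all genes. Of the 37 members, 31 read at or above the median probe set. Among genes that bright, 17.1% were lower and 22.6% higher in Sharp1 cells, and of the 31 members 48.4% were lower and 22.6% higher. The 4 Sharp1 arrays lay wholly below the 4 control arrays for 16 members and wholly above for 4, where all genes gave 12.8% and 16.1%.

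In shHIF cells the set was split, with 10 genes higher and 7 lower than in control. These shares of 27.0% and 18.9% stand beside 17.6% and 13.2% of all genes, and beside 24.3% and 19.8% of genes as bright. For the 31 bright members the shares were 29.0% and 19.4%, close to those of other bright genes. In either direction 30.8% of all genes were called. The shHIF arrays lay wholly above control for 8 members and wholly below for 5, beside 16.3% and 12.3% of all genes. The median difference of the members was 0.03, against 0.05 over all genes. The calls of lower genes depended on which arrays were used. With shHIF A and D left out, the arrays of low spike-in signal, 8 members were still called higher but only IFIT3 lower. The other 6 kept their sign on the 2 arrays left, with IRF9 at -0.14, HERC5 at -0.175, IFIT1 at -0.15, IFIT5 at -0.09, DDX60 at -0.25 and TRIM22 at -0.23. With B and C left out, an alternative added once the values were known, 11 were higher and 6 lower, and all 6 were among the 7. Leaving out control B alone left 4 lower. Calls over all 19775 genes in either direction also changed, from 6095 to 5060 without shHIF A and D. They numbered 6439 without shHIF B and C and 5142 without control B.

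**Figure D1:**
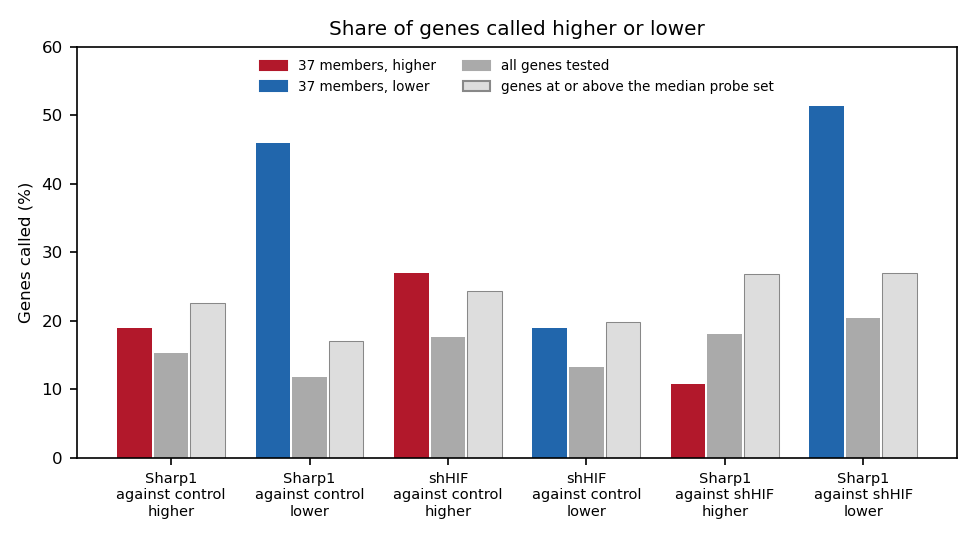
Share of genes called higher or lower (vertical axis, percent) in each comparison. Coloured bars are the 37 members, grey bars all 19775 genes tested, pale bars the 12590 genes at or above the median probe set. The members' share called lower is 45.9% in Sharp1 against control, where grey reads 11.8%.

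The comparisons share the control arrays, so their calls are not independent. Joint calls over all genes were not counted, so those of the members are given as a description. Side by side, 4 members were higher in both groups (IRF7, BST2, IFI6 and IFI27) and 4 were lower in both (HERC5, IFIT3, IFIT5 and TRIM22). IRF9 was higher in Sharp1 and lower in shHIF cells, and OAS3 and GBP2 were lower in Sharp1 and higher in shHIF cells. Called lower in Sharp1 cells and not called in shHIF cells were 11 members, and 7 were called in neither. Over the 61 probe sets, 22 were lower and 7 higher in Sharp1 cells, 11 were lower and 12 higher in shHIF cells, and 26 were lower and 4 higher in Sharp1 against shHIF. Of all probe sets 18.1%, 22.2% and 29.1% were called in these comparisons in either direction, and no member was called both ways in any of them.

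**Figure D2:**
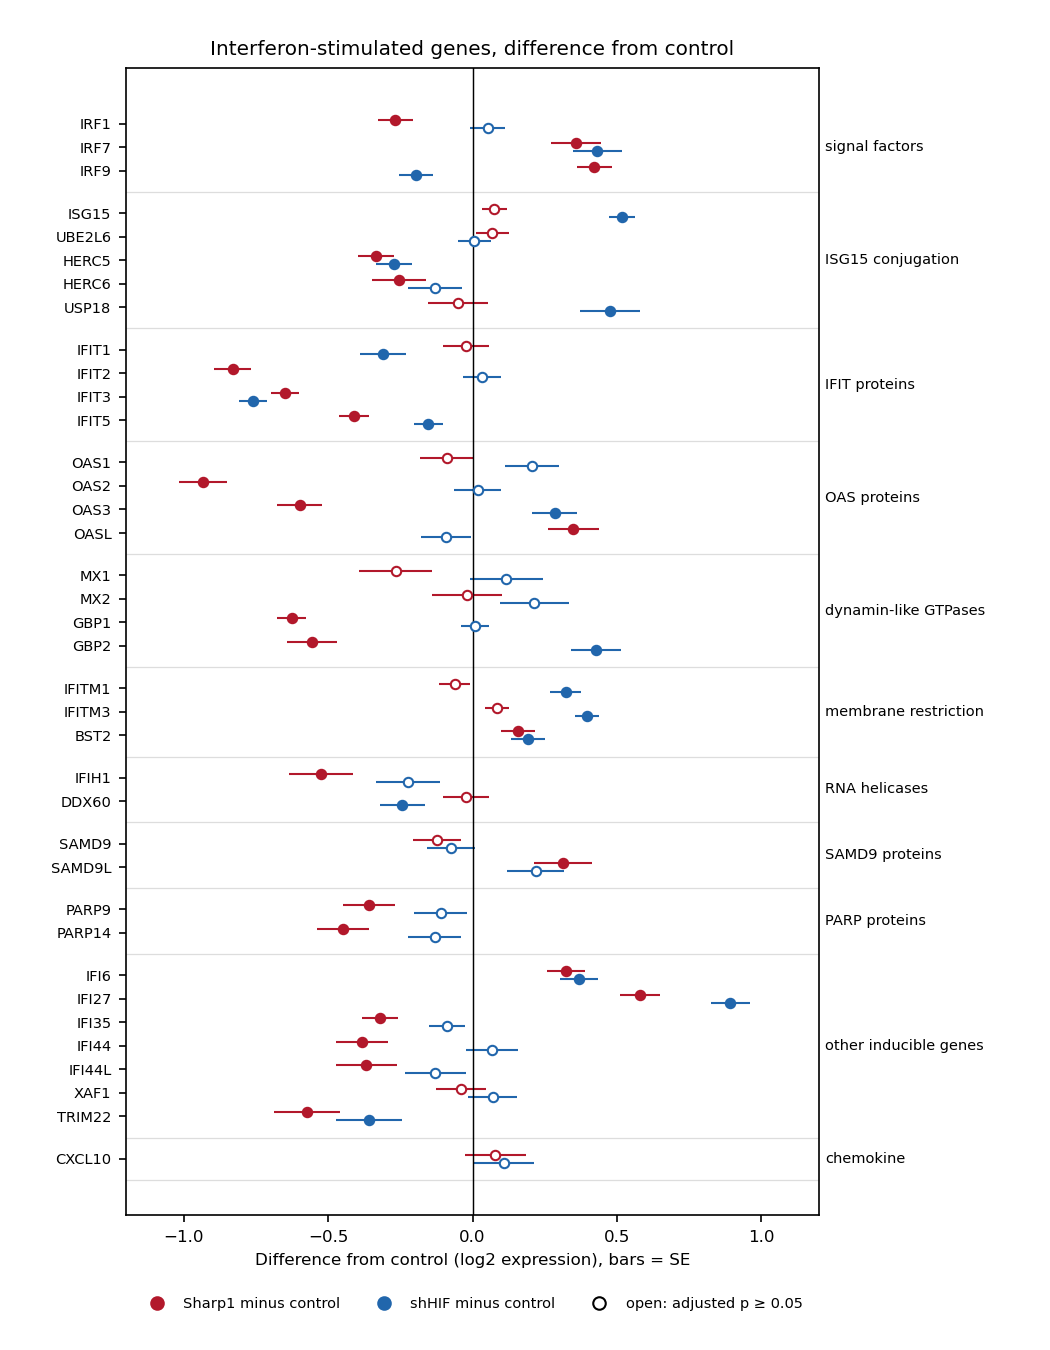
Difference from control (horizontal axis, log2) for each of the 37 members, grouped by role. Points are limma estimates, bars are SE, red is Sharp1 and blue is shHIF, and open points did not pass the test. IFIT2, OAS2 and GBP1 show a red point far to the left and a blue point at 0, and ISG15 and USP18 show a blue point to the right and a red point near 0.

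Among the signal factors, IRF9, the DNA-binding partner of STAT2, is described on every array because its calls had opposite signs, a choice made after its values were seen. IRF9 read 8.61, 8.62, 8.68 and 8.61 on Sharp1 arrays A to D, 7.84, 8.04, 8.08 and 8.07 on shHIF arrays, and 8.23, 8.14, 8.20 and 8.26 on control arrays. The 3 groups did not overlap, and Sharp1 was highest. The difference was 0.42 in Sharp1 cells (SE 0.06, limma adjusted p = 3.88e-06) and -0.20 in shHIF cells (SE 0.06, adjusted p = 0.0132), and the call in shHIF cells was lost without shHIF A (adjusted p = 0.0694). IRF7, the factor that amplifies type I interferon induction, rose by 0.36 in Sharp1 and 0.43 in shHIF cells, and Sharp1 A (7.26) lay within the control range (7.15 to 7.30). IRF1, a factor strongly induced by interferon gamma, fell by 0.27 in Sharp1 cells and by 0.41 on its other probe set. In shHIF cells IRF1 differed by 0.05 on the brighter probe set (not called) and by -0.24 on the other, where it was called over all probe sets.

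Of the IFIT proteins, IFIT1 and IFIT5 bind viral RNA that lacks the host cap pattern. IFIT2 and IFIT3 gave some of the largest falls. IFIT2 read 8.30, 8.23, 8.27 and 8.40 on the Sharp1 arrays, 9.04, 9.28, 9.28 and 9.05 on the shHIF arrays and 9.08, 9.26, 9.03 and 9.14 on the control arrays. Every Sharp1 array lay below all the others, and shHIF and control overlapped. The difference was -0.83 in Sharp1 cells, or 0.56 times the control level (SE 0.06, limma adjusted p = 1.76e-10), and 0.03 in shHIF cells (adjusted p = 0.760). IFIT3, which stabilises IFIT1 in a complex, read 9.50, 9.64, 9.63 and 9.52 in Sharp1, 9.40, 9.56, 9.49 and 9.41 in shHIF and 10.18, 10.22, 10.20 and 10.30 in control cells. Both groups lay wholly below control and overlapped each other. IFIT3 differed by -0.65 in Sharp1 cells (SE 0.05, limma adjusted p = 1.10e-10) and by -0.76 in shHIF cells (SE 0.05, adjusted p = 1.29e-11), and a second probe set gave -0.73 and -0.86. IFIT5 fell by 0.41 in Sharp1 cells on its brightest probe set and by 0.36 on the other. In shHIF cells the other probe set gave -0.36, with every array below control, while the brightest gave -0.15, a call lost without shHIF D (limma adjusted p = 0.0964), control A (0.0537) or control B (0.0923). IFIT1 differed by -0.02 in Sharp1 cells (adjusted p = 0.901). Its arrays are given, a choice made after its values were seen, because its shHIF arrays differed. In shHIF cells IFIT1 read 8.27 and 8.22 on arrays A and D and 8.60 and 8.54 on B and C, against 8.60 to 8.94 in control cells. Its fall of 0.31 (limma adjusted p = 0.00375) was not called without A and D, at -0.15 (adjusted p = 0.188).

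The OAS enzymes make 2′-5′ linked oligoadenylates that activate RNase L, apart from OASL, which lacks that activity and binds the sensor RIG-I. OAS2 read 6.23, 6.48, 6.28 and 6.39 on the Sharp1 arrays, 7.25, 7.44, 7.41 and 7.11 on the shHIF arrays and 7.26, 7.32, 7.21 and 7.34 on the control arrays. Its Sharp1 arrays lay below every other array. The difference of -0.93 (SE 0.08, limma adjusted p = 1.61e-09), 0.52 times the control level, rests on the brightest of 3 probe sets. The other two, which are dim, gave -0.14 and -0.24 in Sharp1 cells (neither called), and the mean of the 3 gave -0.44 (limma adjusted p = 2.69e-05). In shHIF cells OAS2 differed by 0.02 on the brightest probe set, while the dim ones read 0.35 and 0.53 higher and were called over all probe sets. OAS3 read 6.94, 6.75, 6.92 and 6.90 in Sharp1, 7.82, 7.70, 7.61 and 7.91 in shHIF and 7.52, 7.40, 7.62 and 7.36 in control cells. The Sharp1 arrays were lowest without overlap, and shHIF C (7.61) fell just inside the control range. OAS3 differed by -0.60 in Sharp1 cells (SE 0.08, limma adjusted p = 1.25e-06) and by 0.29 in shHIF cells (SE 0.08, adjusted p = 0.00637), the second of which was lost without shHIF A and D (0.155) and with the mean of its probe sets (0.0819). A dimmer OAS3 probe set gave -0.21 and -0.004, neither called, so the opposite signs rest on the brightest one. OASL was higher by 0.35 in Sharp1 cells on its brightest probe set and by 0.34 on the other. OAS1 (-0.09 in Sharp1, 0.205 in shHIF cells) was not called against control.

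Of the dynamin-like GTPases, MX1 and MX2 block incoming viral particles, and the guanylate-binding proteins GBP1 and GBP2 attack membranes of vacuoles and bacteria and respond strongly to interferon gamma. GBP1 read 8.66, 8.60, 8.57 and 8.71 on the Sharp1 arrays, 9.28, 9.33, 9.25 and 9.22 on the shHIF arrays and 9.27, 9.23, 9.23 and 9.31 on the control arrays. Every shHIF and control array lay above the highest Sharp1 array, and those groups overlapped. The difference was -0.63 in Sharp1 cells (SE 0.05, limma adjusted p = 1.97e-10) and 0.01 in shHIF cells (adjusted p = 0.923). Another 2 bright probe sets of GBP1 gave -0.71 and -0.50 in Sharp1 cells. In shHIF cells these read -0.13 and -0.22, and the last was called, so GBP1 is given no direction there. GBP2 read 6.88, 6.81, 7.10 and 6.95 in Sharp1, 7.83, 8.05, 8.12 and 7.69 in shHIF and 7.43, 7.53, 7.40 and 7.61 in control cells. The 3 groups were separate, with shHIF highest. GBP2 differed by -0.56 in Sharp1 (SE 0.09, limma adjusted p = 1.67e-05) and by 0.43 in shHIF cells (SE 0.09, adjusted p = 0.000409). A dimmer GBP2 probe set gave -0.38 and 0.05, neither called. MX1 and MX2 read near or below the median probe set and were not called against control in either group.

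**Figure D3:**
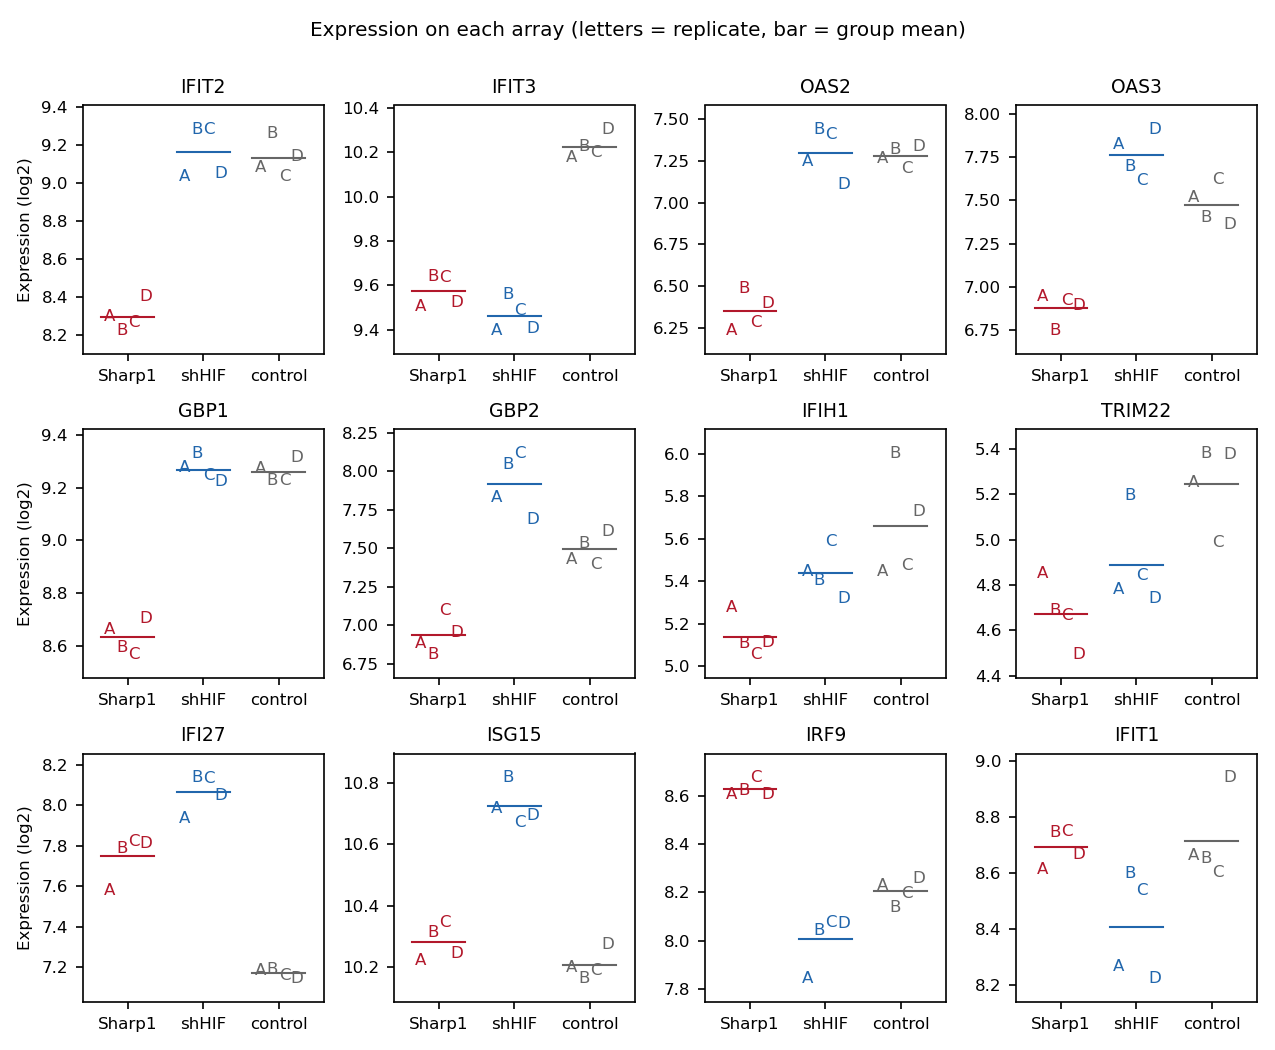
Expression (vertical axis, log2) of 12 members on every array, with replicate letters as points and a bar for each group mean. For IFIT2, OAS2 and GBP1 the Sharp1 letters sit alone at the bottom, for IFIT3 the control letters sit alone at the top, and for IFIT1 the shHIF letters A and D sit below B and C.

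ISG15 is a ubiquitin-like protein, UBE2L6 conjugates it, HERC5 is its ligase, and USP18 removes it and also damps signalling at the receptor. ISG15 read 10.22, 10.31, 10.34 and 10.25 in Sharp1, 10.72, 10.82, 10.67 and 10.69 in shHIF and 10.20, 10.16, 10.19 and 10.28 in control cells. Only the shHIF arrays stood apart. The difference was 0.52 in shHIF cells, or 1.43-fold (SE 0.04, limma adjusted p = 1.22e-09), and 0.07 in Sharp1 cells (adjusted p = 0.245). USP18 showed the same calls, with 0.48 in shHIF cells (adjusted p = 0.000866) and -0.05 in Sharp1 cells, although its control mean of 5.09 was dim. HERC5 fell by 0.33 in Sharp1 and by 0.27 in shHIF cells, and the second was lost without shHIF A and D (limma adjusted p = 0.0524). HERC6, a related protein, fell by 0.25 in Sharp1 cells at a limma adjusted p of 0.0462, a call lost without Sharp1 A or D, control B or C, or shHIF B, at up to 0.176. Centring arrays on their medians also lost the call (limma adjusted p = 0.0696). So did the mean of its probe sets (0.0605) and a fit without the variance trend (0.0518). UBE2L6 was called in neither group.

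The membrane proteins that restrict viruses were IFITM1 and IFITM3, which hinder fusion, and BST2, which tethers budding particles. All of them rose in shHIF cells, IFITM3 by 0.40 (limma adjusted p = 4.66e-08), IFITM1 by 0.32 (3.22e-05) and BST2 by 0.19 (0.0131, lost without shHIF B at 0.0507 or control C at 0.0554). IFITM3 was the brightest member, at 12.11 in shHIF and 11.71 in control cells, on a probe set that may also bind transcripts of related genes. Neither IFITM gene was called in Sharp1 cells. BST2 rose there by 0.16 at a limma adjusted p of 0.0495, which was lost when any of Sharp1 B, C or D, shHIF A, or control A, B or C was left out (up to 0.190).

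IFI27 and IFI6 encode small mitochondrial proteins, and IFI27 had the largest rise of any member in both groups. IFI27 read 7.58, 7.79, 7.82 and 7.81 on the Sharp1 arrays, 7.93, 8.14, 8.13 and 8.05 on the shHIF arrays and 7.19, 7.19, 7.16 and 7.15 on the control arrays. The control arrays lay close together and below all the others. IFI27 rose by 0.89 in shHIF cells, or 1.86-fold (SE 0.07, limma adjusted p = 2.38e-10), and by 0.58 in Sharp1 cells (SE 0.07, adjusted p = 2.55e-07). IFI6 rose by 0.32 in Sharp1 and 0.37 in shHIF cells, wholly above control in both.

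IFIH1 encodes MDA5, a sensor of long double-stranded RNA. It read 5.28, 5.11, 5.06 and 5.11 in Sharp1, 5.45, 5.403, 5.59 and 5.32 in shHIF and 5.44, 6.002, 5.47 and 5.73 in control cells. The Sharp1 arrays lay below the rest, all readings were close to the median probe set, and control B was the highest. The difference was -0.52 in Sharp1 cells (SE 0.11, limma adjusted p = 0.000630), not called as the mean of its 3 probe sets (-0.16, adjusted p = 0.123), and -0.22 in shHIF cells (adjusted p = 0.136). DDX60, a helicase linked to the same sensors, differed by -0.02 in Sharp1 cells and fell by 0.24 in shHIF cells, a call lost without control B or D (limma adjusted p = 0.0524 and 0.0754) and without either pair of shHIF arrays, although the difference stayed between -0.20 and -0.25 in those fits.

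TRIM22, an antiviral ubiquitin ligase, read 4.85, 4.69, 4.66 and 4.49 in Sharp1, 4.78, 5.19, 4.84 and 4.74 in shHIF and 5.25, 5.38, 4.99 and 5.37 in control cells. All these lay below the median probe set, and the Sharp1 arrays lay below every control array. TRIM22 differed by -0.57 in Sharp1 cells (SE 0.11, limma adjusted p = 0.000330) and by -0.36 in shHIF cells (adjusted p = 0.0187), the second lost without shHIF A, shHIF D, control B or control D (0.0570 to 0.0687). PARP9 and PARP14, ADP-ribosyltransferase family members, fell by 0.36 and 0.45 in Sharp1 cells, and the other probe set of PARP9, a dim one, read -0.01. IFI44 and IFI44L fell there by 0.38 and 0.37, with -0.09 (not called) on the other probe set of IFI44 and IFI44L at dim levels of 3.37 in Sharp1 and 3.74 in control cells, and IFI35, a partner of NMI, fell by 0.32. None of these 5 was called in shHIF cells. SAMD9L, a growth-restraining antiviral factor, read 0.31 higher in Sharp1 cells on its brightest probe set, but -0.28 and -0.08 on the others, and is given no direction. SAMD9, XAF1 and the chemokine CXCL10, at 4.35 to 4.46, were called in neither group.

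Several members sit beside each other in the genome, with at most 2 protein-coding genes between them in the RefSeq order. How often neighbours share a call over all genes was not measured, so the pairs are given as a description. Of 12 such pairs, both genes were called lower in Sharp1 cells in 6. These were IFI44L with IFI44, GBP1 with GBP2, IFIT2 with IFIT3, OAS3 with OAS2, PARP9 with PARP14 and HERC6 with HERC5. The calls of IFI44, PARP9 and HERC6 depended on the probe sets or arrays used. In shHIF cells both were lower in 2 pairs, IFIT1 with IFIT3 and with IFIT5, and both higher in 1, IFITM1 with IFITM3. In the other pairs of each group, not both genes were called. Neighbours still differed in size. IFIT2 and IFIT3 on chromosome 10 gave -0.83 and -0.65 in Sharp1 cells, where IFIT1 gave -0.02, and 0.03 and -0.76 in shHIF cells.

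Read directly against each other, Sharp1 cells had 19 members lower and 4 higher than shHIF cells. The difference itself takes no control array, but the control arrays entered the estimate of the spread. These are 51.4% and 10.8% of the members, beside 20.4% and 18% of all genes (38.4% in either direction), and 27% and 26.8% of genes at or above the median probe set. The Sharp1 arrays lay wholly below shHIF for 18 members and wholly above for 4, beside 18.8% and 16.5% of all genes. The median difference was -0.24, against -0.06 over all genes. GBP2 (-0.98), OAS2 (-0.95), OAS3 (-0.88) and IFIT2 (-0.86) were the most negative, and the 4 higher were IRF9 (0.62), OASL (0.44), IFIT1 (0.29) and DDX60 (0.22). The other OASL probe set, nearly as bright, gave 0.14 and was not called (limma adjusted p = 0.219), and that of IFIT5 gave 0.01, against -0.26 on the brightest. ISG15 (-0.44, limma adjusted p = 6.83e-09), IFI27 (-0.31) and IFITM3 (-0.31) were also lower in Sharp1 cells. IFIT3 differed by 0.11 (limma adjusted p = 0.0785), and passed the test when Sharp1 A or shHIF B was left out (0.0499 and 0.0292). Without shHIF A and D, 2 members were higher, and neither IFIT1 nor DDX60 was called. The DDX60 call was also lost without Sharp1 A, B or C, or shHIF A or C (limma adjusted p 0.0509 to 0.0763). Among those lower, the call of IFIH1 (-0.30) was lost without Sharp1 B, C or D, or shHIF A or C (0.0616 to 0.0964). That of PARP9 (-0.25) was lost without Sharp1 A or C, or shHIF B, C or D (0.0543 to 0.112). The PARP9 call was also lost with only the 2 groups compared in the fit (limma adjusted p = 0.0564).

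Upstream of the members, 17 interferon genes were measured, and all 17 read below the median probe set in every group (2.74 to 5.33), among them IFNB1 at 3.80 in Sharp1, 3.94 in shHIF and 3.94 in control cells. IFNA5 and IFNA14 were called in Sharp1 cells (0.25 and 0.27) and IFNA14 and IFNA16 in shHIF cells (0.48 and 0.32), all at dim levels and on probe sets that near-identical copies of these genes may share. Of 9 receptor and kinase genes, 1 was higher and 1 lower in each group. In either direction 22.2% of these 9 were called in each group, as were 11.8% of the 17 interferon genes. Over all genes 27.2% were called in Sharp1 and 30.8% in shHIF cells. IFNAR1, a type I receptor chain, fell by 0.24 in Sharp1 cells and rose by 0.37 in shHIF cells. IL10RB, shared by the receptors of interferon lambda and interleukin-10, rose by 0.36 in Sharp1 cells, and JAK2 fell by 0.35 in shHIF cells. JAK2 read near the median probe set, at 5.23 in shHIF and 5.58 in control cells, and these groups overlapped. Of 5 other STAT and IRF factors, IRF3, which turns on interferon genes, rose in both groups (0.27 in Sharp1, 0.33 in shHIF). The repressor IRF2 fell by 0.42 in Sharp1 cells, and STAT3 rose by 0.16 in shHIF cells. In either direction 40% of these 5 were called in each group.

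Of 12 genes of nucleic acid sensing, 3 were higher and 4 lower in Sharp1 cells, and 4 were higher and 1 lower in shHIF cells. In either direction 58.3% of the 12 were called in Sharp1 cells, beside 27.2% of all genes, and 41.7% in shHIF cells, beside 30.8%. By direction, 25% were higher and 33.3% lower in Sharp1 cells, and 33.3% and 8.33% in shHIF cells. Among genes at or above the median probe set these shares were 22.6% and 17.1% in Sharp1, and 24.3% and 19.8% in shHIF cells. In Sharp1 cells the RNA sensor TLR3 fell by 0.53, the kinase TBK1 by 0.43 and the DNA sensors CGAS by 0.40 and IFI16 by 0.35, while the RNA sensor RIGI rose by 0.38, the adaptor TRAF3 by 0.24 and MAVS, the mitochondrial adaptor of RIGI and MDA5, by 0.18. TLR3 read near the median probe set, at 5.03 in Sharp1, 5.52 in shHIF and 5.56 in control cells. In shHIF cells TRAF3 rose by 0.68, IFI16 by 0.47, and TBK1 and CGAS by 0.26 each, and MAVS fell by 0.39. RIGI and IFI16 were read on probe sets that may also bind other transcripts. Of 9 negative regulators, PIAS1 and SOCS3 fell in Sharp1 cells (-0.35 and -0.30), and the phosphatase PTPN1 fell by 0.31 in shHIF cells. These are 22.2% of the 9 in Sharp1 and 11.1% in shHIF cells, beside 27.2% and 30.8% of all genes in either direction.

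**Figure D4:**
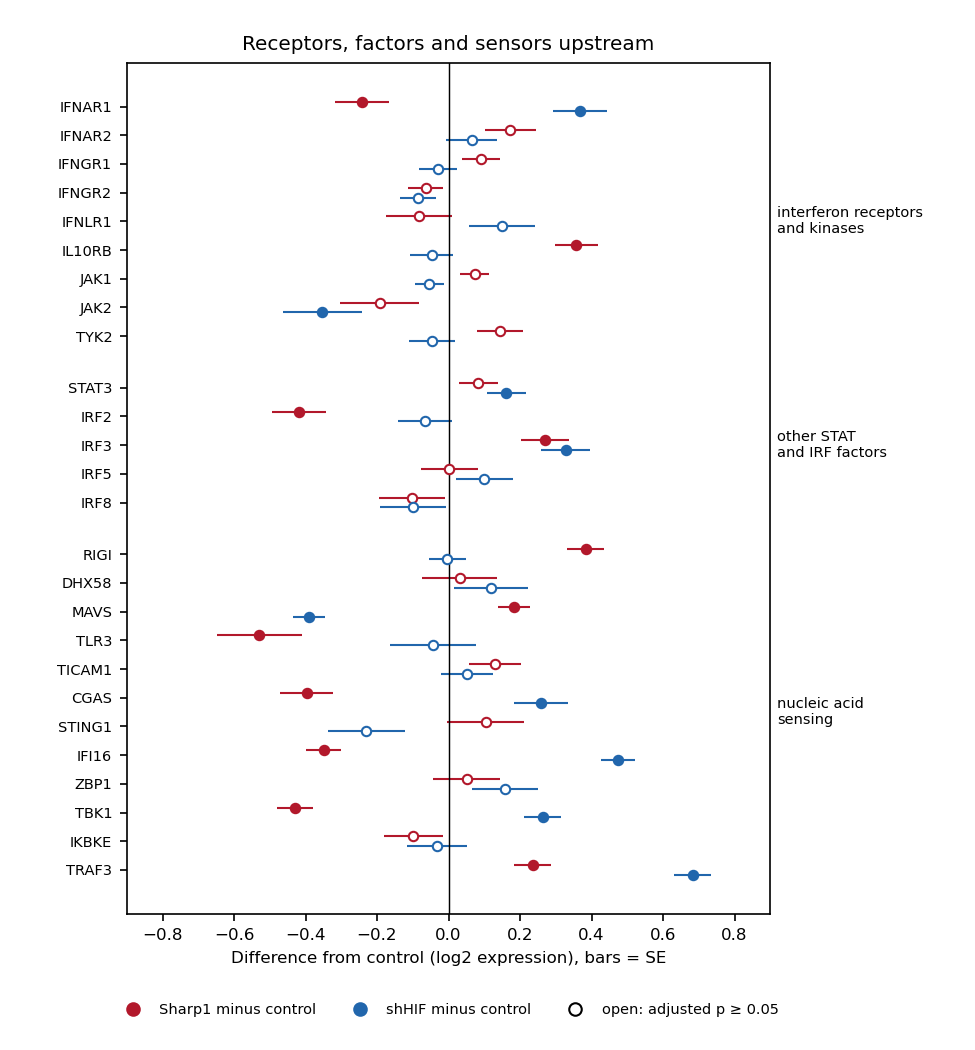
Difference from control (horizontal axis, log2, bars are SE) for receptors, factors and sensors outside the members, red for Sharp1 and blue for shHIF, open where not called. IFNAR1, CGAS, IFI16 and TBK1 lie left of 0 in Sharp1 and right of 0 in shHIF.

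Of 42 other interferon-induced genes measured, 9 were higher and 12 lower in Sharp1 cells, and 11 were higher and 8 lower in shHIF cells. These are 21.4% and 28.6% in Sharp1 cells, beside 15.3% and 11.8% of all genes, and 26.2% and 19.0% in shHIF cells, beside 17.6% and 13.2%. Genes at or above the median probe set gave 22.6% and 17.1% in Sharp1 cells, and 24.3% and 19.8% in shHIF cells. CASP4, an inflammatory caspase, rose by 1.29 in Sharp1 cells, EPSTI1 by 0.55 and LAMP3 by 0.47. The death ligand TNFSF10 fell by 1.16, the nuclear body protein SP100 by 0.72 and DTX3L by 0.68. LAMP3 was dim, at 4.12 in Sharp1 and 3.65 in control cells, and TNFSF10 read 4.37 in Sharp1 and 5.53 in control cells. DTX3L is the partner of PARP9 and its neighbour in the RefSeq gene order. In shHIF cells the exonuclease ISG20 rose by 0.83, PARP12 by 0.46 and APOL1 by 0.39, and EPSTI1 fell by 0.39, PML by 0.35 and SP140L by 0.31. RSAD2 and CMPK2, among the most inducible genes of the response, read 2.95 to 3.72 in all groups and were not called.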

How the data were processed

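RNA of 12 samples was hybridised to Affymetrix arrays with 54675 probe sets, of which 62 are control probe sets. The deposited values are log2 expression made with RMA by the authors, per the submitters' processing notes, with no version named. The number of arrays limits the precision. Gene names came from the platform annotation of the probe sets (41091 with 1 symbol, 1801 with several and 11721 not named), and 41037 matched a gene ID in the RefSeq table of GRCh38.p14. Each gene was read on its brightest probe set, by the mean of all arrays. Group means were fitted with limma 3.58.1 in R 4.3.3, with eBayes and trend over 12 arrays, and the Benjamini-Hochberg adjustment ran over 19775 genes, or over 54613 probe sets where single probe sets are given. The fit was tested on simulated data.

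The members and lists were chosen with earlier results of these data known. Values on every array are given for members called against control with a difference of at least 0.5, other called members by their difference, and per list of pathway genes up to 3 rises and 3 falls. Of 102 pathway genes outside the members, 94 were measured. Alternatives covered replicates, the replicate block, groups in the fit, centring, dim genes, the choice of probe set, array weights and the variance trend.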

Additional observations from a re-analysis of the deposited data

Results flagged for a closer look

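Among 90 groups of 4 arrays (30 called members in 3 groups), 4 held an array far from the other three by Dixon's test, and chance flags about 1 group in 20. IRF9 read 7.84 on shHIF A, against 8.04 to 8.08 on the other shHIF arrays. PARP14 read 6.28 on shHIF A, against 6.44 to 6.46 on the others, and 6.82 on control D, against 6.42 to 6.46. IFI27 read 7.58 on Sharp1 A, against 7.79 to 7.82. shHIF A is 1 of the 2 arrays with low spike-in signal.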

How the results depend on the processing

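The calls against control in Sharp1 cells numbered 5 to 7 higher and 14 to 18 lower under every alternative run. Over leave-one-out fits the members lower in shHIF cells numbered 4 (without control B) to 7, and 1 was lower without shHIF A and D. Sharp1 against shHIF gave 2 higher without shHIF A and D. Over all genes, calls in shHIF cells fell from 6095 to 5142 without control B and 5060 without shHIF A and D. Those in Sharp1 against shHIF fell from 7588 to 6473 without shHIF A and D. With the replicate block, 17 members were lower and 7 higher in Sharp1 cells, 7 lower and 10 higher in shHIF cells, and no call of a named member changed. Same-lettered arrays of different groups had residual correlations of -0.18 to 0.14, and 1 of 12 such pairs exceeded 0.1, so letters were not taken as pairs. Without dim genes the median in Sharp1 cells was -0.25, where 6 dim members are left out. Directions reversed for SAMD9L in Sharp1 cells with the mean of its probe sets (-0.015), for GBP1 in shHIF cells (-0.22, limma adjusted p = 0.0326) and for IFI44 in Sharp1 against shHIF (0.099, adjusted p = 0.495) without probe sets shared between transcripts. Of 90 differences of 30 named members, 62 kept their call in all settings. With the mean of all probe sets, OAS2 was called in shHIF cells (0.30, limma adjusted p = 0.00112) while GBP2 (0.112) and OAS3 (0.0819) were not. IFI44 (adjusted p = 0.619) and PARP9 (0.951) were not called in Sharp1 cells without shared probe sets. IFI44L, TRIM22 and USP18 read below the median probe set, so their values are less certain.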
